A study of Mus musculus with 12 samples.

Results

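The acute phase protein genes examined here were Saa1, Saa2, Saa3, Orm1, Orm2, Hp, Lcn2, Crp, Apcs and Hamp, which are 10 of the 55487 genes in the counts table and were chosen by their symbols as proteins induced by interleukin-6 (IL-6) and interleukin-1. Their RNA was measured by sequencing of total RNA from the liver and brain of 6 mice, which gave 4 groups of 3 libraries. WT liver and WT brain came from mice B, D and E, and KO liver and KO brain came from mice A, C and F. In KO mice Mettl5 is disrupted, whose protein adds a methyl group to 1 adenosine of the small ribosomal RNA. The knockout was whole-body: a conditional allele with an exon of Mettl5 between loxP sites, made in hybrid C57bl/6 x 129S6 embryonic stem cells and backcrossed to B6, was recombined by a CMV-cre transgene. The labels name the controls WT. The study's figure legends on this RNA-seq instead give heterozygous (Mettl5+/-) controls, and another part of it calls them wild type. WT therefore stands for the libraries labelled so, and these mice may be heterozygous. The labels give no age, sex, litter or batch, and they name no infection, injection or other treatment, so the values are levels in mice that were not deliberately inflamed.

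The acute phase response is the change in the plasma proteins that the liver secretes after infection or injury. IL-6 acts through the receptor subunits Il6ra and Il6st and the factor STAT3, interleukin-1 acts through NF-kappaB, and both raise C/EBP factors, so that hepatocytes transcribe serum amyloid A, alpha-1-acid glycoprotein, haptoglobin and related genes. Basal levels of some of these genes are high and change little, whereas others are nearly silent until a stimulus arrives.

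The liver libraries held between 16145754 and 21623180 counts each, and the brain libraries between 14403309 and 18365114. Mettl5, the targeted gene, had 14.9, 8.13 and 8.35 CPM (read counts normalised to the scaled library size) in WT livers B, D and E and 3.85, 3.64 and 4.07 in KO livers A, C and F. The KO libraries were thus below all WT libraries, although reads over the remaining exons are counted too. The edgeR log2 fold change of Mettl5 was -1.44 in liver (SE 0.27, adjusted p = 0.383) and -0.84 in brain (SE 0.27, adjusted p = 0.373). The targeted gene itself was thus not called by edgeR at an adjusted p under 0.1. The 10 hepatocyte markers summed to at least 75100 CPM in every liver and at most 386 CPM in every brain, and the 7 neuron markers to at least 4067 CPM in brain and at most 20.2 CPM in liver, so tissue markers and labels went together. Mice E (WT) and F (KO) lacked Y-linked transcripts and the other 4 mice had them, so each genotype held 1 mouse without and 2 mice with them.

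The serum amyloid A genes lie together on chromosome 7, Orm1 and Orm2 lie side by side on chromosome 4 and the pentraxin genes Crp and Apcs lie on chromosome 1, so several of the genes are neighbours as well as relatives. In the mm10 build, Saa1 (ENSMUSG00000074115.5) spans chr7:46740497-46742980 on the minus strand and Saa2 (ENSMUSG00000057465.5) spans chr7:46751790-46754313 on the plus strand. Orm1 (ENSMUSG00000039196.2, chr4:63344560-63348163) and Orm2 (ENSMUSG00000061540.3, chr4:63362449-63365878) are both on the plus strand. Hamp (ENSMUSG00000050440.8) spans chr7:30942368-30944032 on the minus strand. On the same strand are Saa3 (ENSMUSG00000040026.8, chr7:46711998-46715700), Hp (ENSMUSG00000031722.10, chr8:109575128-109579172), Lcn2 (ENSMUSG00000026822.14, chr2:32384633-32388252) and Apcs (ENSMUSG00000026542.6, chr1:172893961-172895041), whereas Crp (ENSMUSG00000037942.5, chr1:172698055-172833031) is on the plus strand.

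The sequences before the start sites of 4 members are given because 3 of them (Saa1, Saa2 and Orm2) varied together between mice and the 4th, Hamp, did not follow them. They come from RefSeq on GRCm38.p6, the same assembly as mm10, are written 5′ to 3′ on the strand of the gene, and run from 250 bases before the RefSeq start to the first annotated exon of the gene, which are chr7:46742981-46743230 (minus) for Saa1, chr7:46751583-46751789 (plus) for Saa2, chr4:63362199-63362448 (plus) for Orm2 and chr7:30944033-30944279 (minus) for Hamp. Capitals mark matches, on either strand, to a C/EBP motif (TTNCNNAA), a STAT motif (TTCNNNGAA) or the letters GGCGCC of a BMP response element.
Saa1: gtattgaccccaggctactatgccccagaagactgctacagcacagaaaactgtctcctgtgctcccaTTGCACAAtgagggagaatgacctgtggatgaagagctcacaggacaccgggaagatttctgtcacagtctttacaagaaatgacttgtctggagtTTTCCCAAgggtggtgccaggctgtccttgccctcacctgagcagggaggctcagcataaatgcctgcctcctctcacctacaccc
Saa2: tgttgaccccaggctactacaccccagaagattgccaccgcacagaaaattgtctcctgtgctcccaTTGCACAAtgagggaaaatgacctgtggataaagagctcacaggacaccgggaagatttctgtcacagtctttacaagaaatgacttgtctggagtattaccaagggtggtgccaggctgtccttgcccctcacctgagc
Orm2: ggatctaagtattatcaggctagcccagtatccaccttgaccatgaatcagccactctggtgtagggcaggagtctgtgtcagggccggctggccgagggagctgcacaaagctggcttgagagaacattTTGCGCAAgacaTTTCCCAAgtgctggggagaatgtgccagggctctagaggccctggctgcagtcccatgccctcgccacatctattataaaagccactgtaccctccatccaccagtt
Hamp: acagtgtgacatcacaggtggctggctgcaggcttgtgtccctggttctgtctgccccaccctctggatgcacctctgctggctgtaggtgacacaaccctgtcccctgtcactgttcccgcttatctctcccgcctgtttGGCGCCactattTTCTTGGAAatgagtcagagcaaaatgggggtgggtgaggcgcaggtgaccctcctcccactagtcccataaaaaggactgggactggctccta

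Saa1 and Saa2 were identical at 195 of 206 aligned bases (94.7%) of these stretches, and both carried the C/EBP match TTGCACAA. Orm2 carried TTGCGCAA, which reads the same on both strands, followed by TTTCCCAA. Hamp held no C/EBP match here and carried GGCGCC next to the STAT match TTCTTGGAA. Entries of 250 bases before the start were found for 8 of the 10 genes, all but Orm1 and Hp. The C/EBP motif was present in 6 of these 8, against 12104 of 32851 mouse promoters of the same length (36.8%). The 6 were Saa1, Saa2, Saa3, Orm2, Lcn2 and Crp, and Apcs and Hamp had no match. Among the 6, the SD of log2 CPM within liver groups ran from 0.13 (Crp) and 0.14 (Saa3) to 1.68 (Lcn2). Without the match it was 0.42 for Hamp and 0.90 for Apcs. Genes with the match thus had both the smallest and the largest SD of the 8, and a link of the match to the spread between mice was not tested. For Lcn2 the window begins within an annotated exon of the gene and is not printed. The STAT motif was present in Apcs and Hamp, 2 of 8, against 7.02% of all promoters, GGCGCC was present in 1 of 8, against 9.59%, and the NF-kappaB consensus was present in 0 of 8, against 3.90%. The matches are descriptions of letters, and none of the searched motifs overlapped another in the printed stretches.

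Reads can be divided wrongly between near-identical relatives, so the transcripts were compared. The principal transcripts of Saa1 and Saa2 were identical at 94.4% of aligned bases, those of Orm1 and Orm2 at 91.0% and those of Hamp and its copy Hamp2 at 94.6%. No stretch of 100 bases, the read length, of the principal transcripts of Saa1, Saa2, Saa3, Hp, Lcn2, Crp, Apcs or Hamp occurred unchanged in the transcripts of another gene, whereas 47 of 676 such stretches (6.95%) were shared by Orm1 and Orm2. Other exons of these genes, over which reads were also counted, were not searched. Values for Orm2, the lower of this pair, are therefore less certain than those for Orm1.

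Per length of the principal transcript, Hamp was the highest of the 10 genes in WT liver and Saa3 the lowest. As RPKM (CPM divided by the length in kilobases), means ± SD in WT liver (n = 3) were 748 ± 230 for Hamp, which encodes the iron hormone hepcidin, 736 ± 238 for Hp, which encodes the haemoglobin scavenger haptoglobin, and 483 ± 156 for Orm1, which encodes alpha-1-acid glycoprotein. The libraries of these 3 genes overlapped from one to the next. Crp (97.1 ± 4.17) and Apcs (86.2 ± 64.8), which encode the pentraxins C-reactive protein and serum amyloid P, came next and also overlapped. Below them stood Saa1 (22.1 ± 8.86), Saa2 (12.6 ± 6.23) and Orm2 (11.5 ± 7.01), each overlapping the next, and then Lcn2 (3.71 ± 3.42) and Saa3 (1.99 ± 0.120), which overlapped each other as well. Divided instead by the length of all exons of the gene, Orm2 (11.5) came above Saa1 (5.43) and Saa2 (3.03), and Apcs (86.2) above Crp (47.8), so the order within these groups rests on the length used. The order from Hamp to Orm1 held in KO liver, where Hamp reached 1268 ± 310 and lay above every value of Hp (779 ± 84.9).

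**Figure D1:**
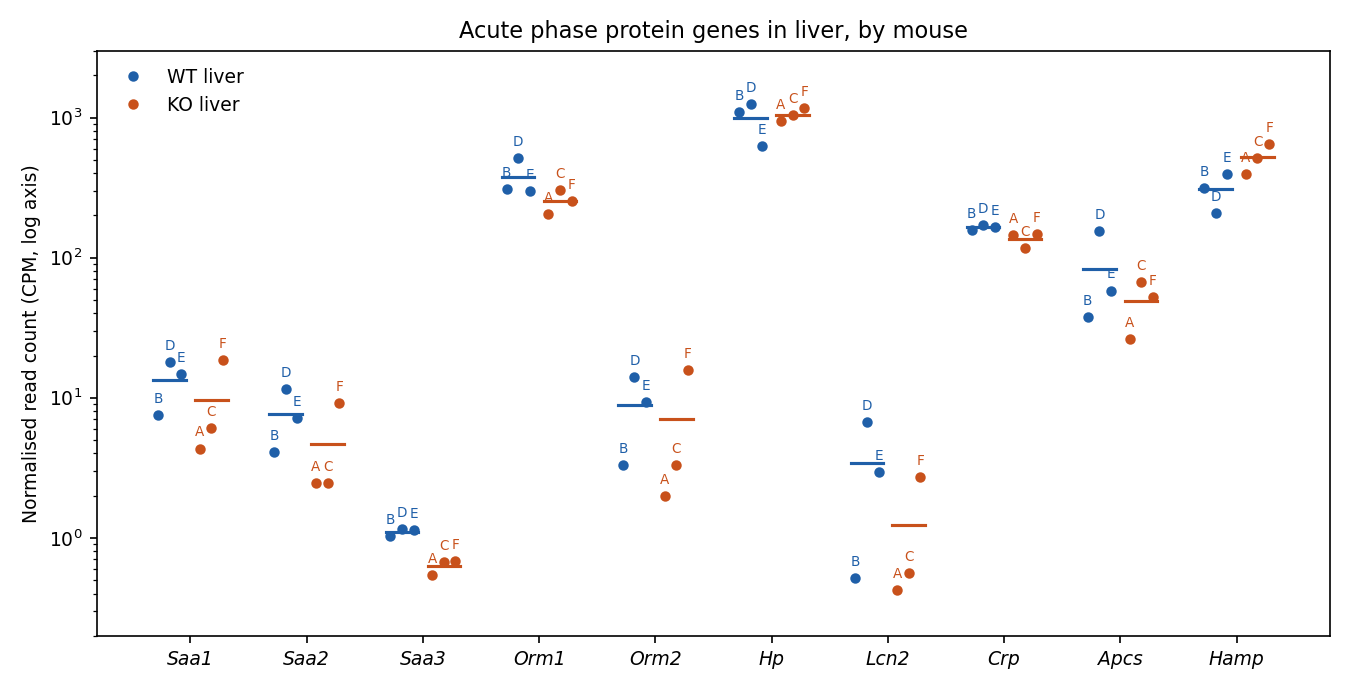
Normalised read counts (CPM, log axis) of the 10 acute phase protein genes in the 6 livers, with 1 point per library labelled by its mouse and a short line at the mean of each group of 3. Mice D and F are the 2 highest for Saa1, Saa2 and Orm2, whereas for Saa3 and Crp all 3 KO points lie below all 3 WT points.

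The serum amyloid A proteins are carried on high density lipoprotein, and Saa1 and Saa2 are the forms made by hepatocytes. Saa1 had 7.52, 18.1 and 14.8 CPM in WT livers B, D and E and 4.34, 6.10 and 18.6 CPM in KO livers A, C and F. Saa2 had 4.07, 11.6 and 7.21 CPM in the WT livers and 2.47, 2.46 and 9.18 CPM in the KO livers. For both genes KO liver F stood with WT livers D and E, KO livers A and C lay below every WT liver, and the groups overlapped. The log2 fold change of KO against WT was -0.47 (SE 0.64, adjusted p = 0.936) for Saa1 and -0.68 (SE 0.63, adjusted p = 0.883) for Saa2, by edgeR's quasi-likelihood test with p-values adjusted by the Benjamini-Hochberg method across the 14075 genes tested in liver. With the reads of the pair summed, it was -0.54 (SE 0.67, adjusted p = 0.927). The ratio of Saa1 to Saa2 counts stayed between 1.56 and 2.48 in the 6 livers, so the pair varied together from mouse to mouse.

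Saa3, the form made mainly by macrophages and adipose tissue, was read at only 9 to 20 counts per liver. It had 1.03, 1.15 and 1.14 CPM in WT livers B, D and E and 0.542, 0.672 and 0.678 CPM in KO livers A, C and F. All KO livers lay below all WT livers, and the log2 fold change was -0.80 (SE 0.39, adjusted p = 0.727). An exact two-sided permutation test over the 6 libraries gave p = 0.1, the smallest that 3 against 3 allow. Unlike Saa1 and Saa2, it did not separate mouse F from mice A and C. The 4 adipocyte markers summed to 0.309, 6.59 and 6.19 CPM in WT livers B, D and E and to 0.121, 0.280 and 0 CPM in KO livers A, C and F, with 0 of 4 past the filter on low counts. Cfd, which encodes adipsin, held 0.309, 6.59 and 2.73 CPM of these sums in the WT livers and 0, 0.280 and 0 CPM in the KO livers. The sum and Cfd were lower in every KO liver than in every WT liver, by 5 counts of Cfd in KO liver C against 6 in WT liver B at the closest, whereas Adipoq, Plin1 and Retn overlapped. The 8 markers of Kupffer cells, the liver macrophages, also all had a log2 fold change below 0 (median -0.44, 0 called). The part of adipocytes or macrophages in the Saa3 values was not tested.

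The Orm genes encode alpha-1-acid glycoprotein, a plasma carrier of basic drugs and lipids. Orm1 had 308, 514 and 301 CPM in WT livers B, D and E and 204, 305 and 254 CPM in KO livers A, C and F. KO liver C exceeded WT liver E, so the groups overlapped, and the log2 fold change was -0.56 (SE 0.24, unadjusted p = 0.0463, adjusted p = 0.672). Orm2 had 3.30, 14.2 and 9.25 CPM in the WT livers and 1.99, 3.30 and 15.7 CPM in the KO livers, with a log2 fold change of -0.33 (SE 0.96, adjusted p = 0.976). Mouse F held the highest Orm2 value and the second lowest Orm1 value. The ratio of Orm1 to Orm2 counts was therefore uneven, with 93.6, 36.3 and 32.5 in WT livers B, D and E and 102, 92.4 and 16.2 in KO livers A, C and F. With the pair summed, which is nearly Orm1 alone, the log2 fold change was -0.55 (SE 0.24, adjusted p = 0.678).

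Hp varied by 1.97-fold between the lowest and the highest mouse. Haptoglobin binds free haemoglobin in plasma, and the complex is taken up through Cd163 on macrophages. Hp had 1095, 1245 and 631 CPM in WT livers B, D and E and 940, 1036 and 1168 CPM in KO livers A, C and F, with a log2 fold change of 0.082 (SE 0.24, adjusted p = 0.976). WT liver E was the lowest of the 6, and the remaining 5 lay within 940 to 1245 CPM. Among mice with Y-linked transcripts both KO livers lay below both WT livers, whereas of the mice without them the KO liver (F) was above the WT liver (E). The interaction of genotype with Y-linked transcripts in edgeR, a test chosen after the data were seen and with 1 liver per genotype without such transcripts, called 0 of 14075 genes (467 at an unadjusted p under 0.05, no second tool run). Hp was among the 467 (log2 difference 1.13, unadjusted p = 0.00228, adjusted p = 1.0 with edgeR), and it was not called.

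Lcn2, which encodes a protein that withholds iron from bacteria by binding their siderophores, showed the widest spread. It had 0.515, 6.72 and 2.95 CPM in WT livers B, D and E and 0.422, 0.560 and 2.71 CPM in KO livers A, C and F, which were 10, 105, 52, 7, 10 and 52 counts. Mice D, E and F were high and mice A, B and C were low, so each genotype held both kinds. The log2 fold change was -1.43, with an SE of 1.05 (adjusted p = 0.859). Lcn2 is also abundant in neutrophils, and the 10 neutrophil markers summed to 0.412 to 3.35 CPM in WT liver and to 0.224 to 0.723 CPM in KO liver, with Mpo and Ly6g at 0 counts in all 6 livers. Most of the highest sum was Ltf, the gene of lactoferrin, with 51 counts (2.90 CPM) in WT liver E and at most 1 count in each of the other 5. None of these 10 markers passed the filter on low counts.

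The pentraxins are ring-shaped proteins that bind microbes and damaged cells, and in mice serum amyloid P (Apcs) responds to inflammation more than C-reactive protein (Crp) does. Crp had 158, 172 and 165 CPM in WT livers B, D and E and 144, 118 and 148 CPM in KO livers A, C and F. All KO livers lay below all WT livers (exact two-sided permutation p = 0.1, the smallest possible), and the log2 fold change was -0.27 (SE 0.14, adjusted p = 0.738). Apcs had 37.4, 155 and 58.3 CPM in the WT livers and 26.1, 67.2 and 52.6 CPM in the KO livers, with a log2 fold change of -0.78 (SE 0.66, adjusted p = 0.880). The Apcs groups overlapped, and its spread came from mouse D, the highest, and mouse A, the lowest. Without mouse D its log2 fold change was 0.029.

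Hamp lay on the other side of 0 from most members. Hepcidin blocks the iron exporter ferroportin (Slc40a1), and its gene answers both to IL-6 through STAT3 and to iron through BMP and SMAD proteins. Hamp had 313, 209 and 398 CPM in WT livers B, D and E and 395, 515 and 649 CPM in KO livers A, C and F. KO livers C and F lay above all WT livers, but KO liver A lay just below WT liver E. The log2 fold change was 0.76 (SE 0.26, unadjusted p = 0.0178, adjusted p = 0.534), and DESeq2 gave an adjusted p of 0.132 (3.06e-04 to 0.985 over 14 alternatives). Mouse D, highest in 7 of the 10 genes, was the lowest for Hamp.

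Over the 10 genes, none passed the test at an adjusted p under 0.1 in KO against WT liver with either edgeR or DESeq2. The edgeR test called 0% of the 14075 genes tested, with 7.33% of them at an unadjusted p under 0.05, and DESeq2 called 1.13% of 15159. All 10 members passed the filter on low counts in liver. Of these, 1 was higher in KO at an unadjusted p under 0.05 (Hamp, against 2.76% of all genes) and 1 was lower (Orm1, against 4.57%). With no filter on low counts, the same 2 genes were called by edgeR (adjusted p = 3.06e-04 for Hamp and 0.0558 for Orm1) among 443 genes in all. The log2 fold change was below 0 for 8 of 10 members, with a median of -0.51 against -0.0024 over all genes tested. The 3 KO and 3 WT livers did not overlap for 2 of 10 members (Saa3 and Crp, both lower in KO), against 12.9% of all genes in either direction and 6.44% lower in KO. The median moved from -0.22 without mouse D, when 6 of 10 were below 0, to -0.85 without mouse F, when 9 of 10 were. In the mice with Y-linked transcripts it was -0.83 over the 9 genes that could be fitted, 8 of them below 0 and none called. That fit called 29 genes in all. The sign of single members was less firm. Orm2 was above 0 without mouse A, C or D, Hp was below 0 without mouse E or F, and Apcs came to 0.029 without mouse D.

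**Figure D2:**
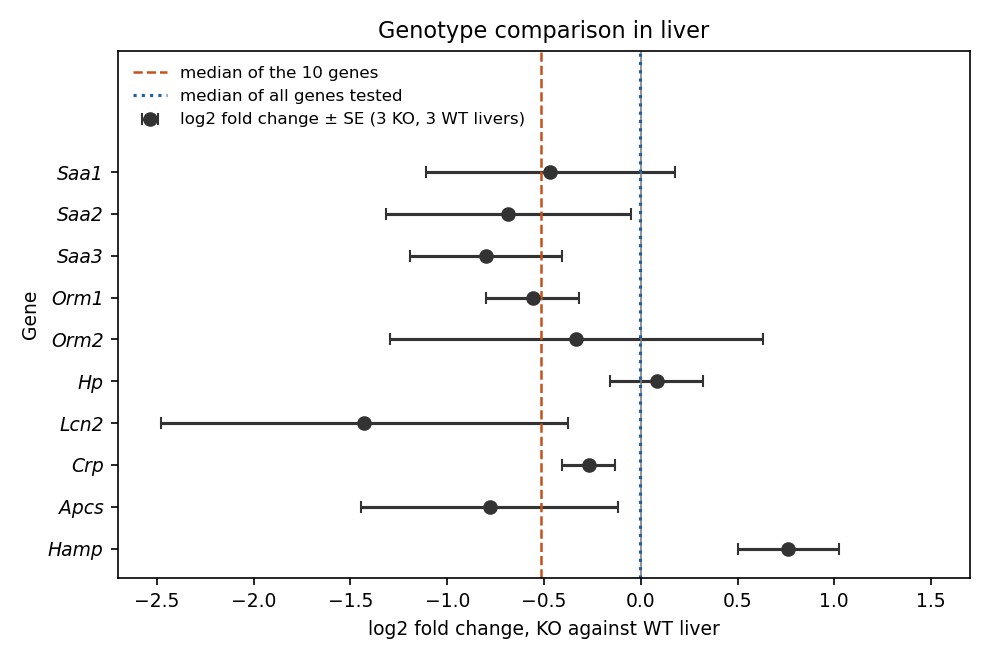
Log2 fold change of each gene in KO against WT liver (points) with its SE (bars), from 3 livers per genotype. The dashed line at -0.51 is the median of the 10 genes and the dotted line at -0.0024 is the median of all genes tested, and Hamp and Hp are the only points to the right of 0.

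The spread between mice of a genotype was widest for 5 of the genes. The SD within groups on the log2(CPM + 0.5) scale, where the offset shrinks the spread of low genes, was 1.23 for Lcn2, 1.23 for Orm2, 0.89 for Apcs, 0.86 for Saa1 and 0.86 for Saa2, against a median of 0.24 over all genes tested and 0.31, 0.18 and 0.19 over genes at 1 to 10, 10 to 100 and 100 to 1000 CPM. It was 0.42 for Hamp, 0.38 for Hp, 0.37 for Orm1, 0.13 for Crp and 0.083 for Saa3. With no offset it was 1.68 for Lcn2, 1.34 for Orm2, 0.94 for Saa2 and 0.14 for Saa3. Saa3 rests on 9 to 20 counts per liver, too few for its small SD to show a stable level. The highest mouse exceeded the lowest by 15.9-fold for Lcn2, 7.90-fold for Orm2 and 5.96-fold for Apcs, but by 1.46-fold for Crp and 1.97-fold for Hp. The genes with a wide spread thus lay in the middle and lower part of the range of levels, and the abundant Hp, Hamp and Orm1 varied less, though Hamp and Orm1 varied more than the median of genes at 100 to 1000 CPM.

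The mice kept much the same order across several genes. Mouse D was the highest of the 6 for 7 genes and mouse F for the other 3 (Saa1, Orm2 and Hamp), while mouse A was the lowest for 6. The mean deviation of the 10 genes from their mean over the 6 livers, on the log2(CPM + 0.5) scale, was 0.70 in WT liver D, 0.40 in KO liver F, 0.21 in WT liver E, -0.30 in WT liver B, -0.32 in KO liver C and -0.68 in KO liver A. Each genotype therefore had livers on both sides of 0. For Saa1, Saa2, Orm2 and Lcn2 alone, a set chosen after the values were seen, the deviations were 1.21, 0.88, 0.56, -0.64, -0.85 and -1.16 in the same order of mice (D, F, E, B, C and A). Over the other 6 genes they lay between -0.36 in mouse A and 0.36 in mouse D, and the 4 mice between these lay at -0.078 (B), -0.027 (E), 0.033 (C) and 0.070 (F).

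**Figure D3:**
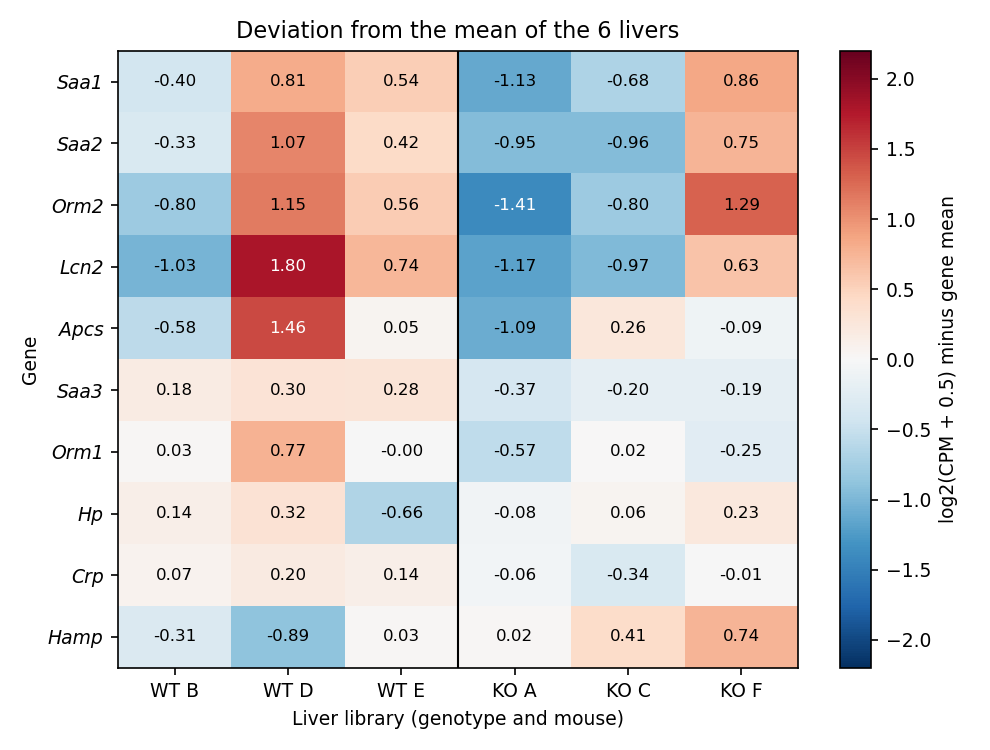
Deviation of each gene (rows) from its mean over the 6 livers (columns), on the log2(CPM + 0.5) scale, with red above and blue below the mean and a line between WT and KO. Saa1, Saa2, Orm2 and Lcn2 are above 0 in mice D, E and F and below 0 in mice A, B and C, and Hamp is at -0.89 in mouse D, where the other 9 genes are above 0.

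The summed markers of Kupffer cells, the macrophages of the liver, had the same 3 highest mice, though not every single marker did. In liver pieces a smaller number of cells of a type and less RNA in each of them cannot be told apart. The 8 Kupffer cell markers summed to 238, 386 and 277 CPM in WT livers B, D and E and to 175, 169 and 330 CPM in KO livers A, C and F, with no marker at 0. Mice D, F and E, in that order, were thus the 3 highest for the summed markers as well as for the acute phase protein genes. Of single markers, Marco, Timd4 and Adgre1 were higher in mouse B than in mouse E. Marco was also higher in mouse B (8.80 CPM) than in mouse F (5.42 CPM), and Vsig4 and Csf1r ordered mice D, E and F otherwise. All 8 markers had a log2 fold change below 0 in KO liver, with a median of -0.44 and 0 of 8 called (1 of 8 at an unadjusted p under 0.05, and 0 called by DESeq2). The hepatocyte markers, from the cells that make most of these proteins, summed to 75100 to 98120 CPM in WT and 84660 to 98220 CPM in KO livers. The part of either cell type in the differences between mice was not tested.

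**Figure D4:**
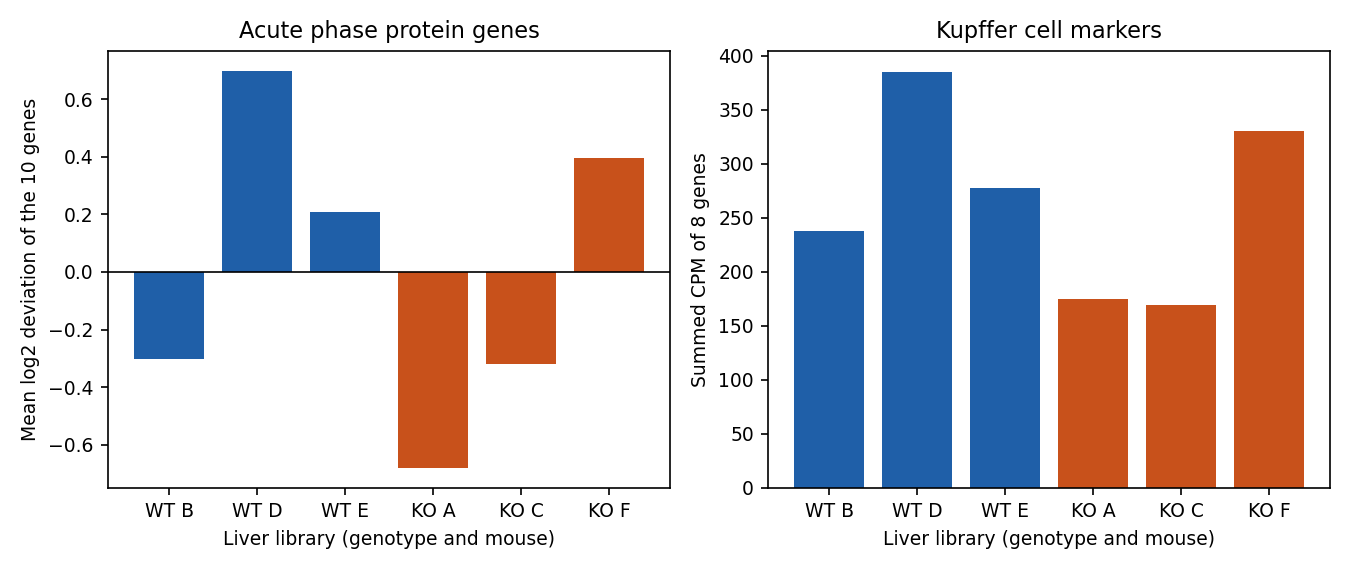
Mean log2 deviation of the 10 acute phase protein genes (left, bars from 0) and summed CPM of 8 Kupffer cell markers (right) in each liver, with WT mice in blue and KO mice in orange. Mice D, F and E are the 3 highest in both panels, at 0.70, 0.40 and 0.21 and at 386, 330 and 277 CPM.

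Of the inducing cytokines, Il6 and Tnf were barely read in these livers, whereas Il1a and Il1b were read in every liver. Il6 had 0 CPM in 5 livers and 0.181 in KO liver A, which was 3 counts, and Tnf was at most 0.261 CPM. Il1b had 6.59, 10.4 and 2.84 CPM in WT livers B, D and E and 4.70, 2.52 and 3.96 CPM in KO livers A, C and F (log2 fold change -0.82, SE 0.45, adjusted p = 0.766). Of 9 cytokine ligands, 2 passed the filter on low counts (Il1a and Il1b) and 0 were called, with 0 at an unadjusted p under 0.05 and 0 called by DESeq2. Among 7 receptors 0 were called by either tool (0 at an unadjusted p under 0.05). Il6st averaged 218 ± 17.7 CPM in WT and 252 ± 18.8 CPM in KO liver, and Il6ra 30.9 ± 8.75 and 38.7 ± 19.1 CPM (SD, n = 3).

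Signal transducers and feedback targets gave 0 calls with either tool, with 1 of each list at an unadjusted p under 0.05. Of 14 transducers and factors, 7 were above and 7 below 0 with a median of 0.0063, and Jak2, the kinase bound to cytokine receptors, was at an unadjusted p of 0.0421 (log2 fold change -0.34, SE 0.14, adjusted p = 0.668). Stat3 averaged 123 ± 17.0 CPM in WT and 126 ± 22.8 CPM in KO liver, and Cebpb 114 ± 41.9 and 102 ± 14.2 CPM. Socs3, a feedback inhibitor that STAT3 induces, stood apart in 1 mouse, with 20.3 CPM in KO liver A against 2.95 to 5.25 CPM in the other 5 livers. Junb, another feedback target, was also highest in that liver, with 38.3 CPM against 8.18 to 19.7 CPM in the others. That liver was the lowest for 6 of the 10 acute phase protein genes. It was the single one with Il6 reads, but these were 3 counts, no more than the floor. Zfp36, which destabilises cytokine mRNA, had a log2 fold change of -0.47 (SE 0.14, adjusted p = 0.485). The 7 feedback targets tested had a median of -0.018.

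The wider set of acute phase genes lay around 0. Of 27 other positive acute phase genes, 25 were tested, with 14 above and 11 below 0, a median log2 fold change of 0.068 and 0 called by either tool (1 at an unadjusted p under 0.05). The gene with the smallest p was Tat, a tyrosine-degrading enzyme induced by glucocorticoids, at -0.53 (SE 0.16, adjusted p = 0.471). Saa4, the serum amyloid A gene that is expressed constitutively, had 184, 246 and 153 CPM in WT livers B, D and E and 160, 184 and 158 CPM in KO livers A, C and F (log2 fold change -0.21, SE 0.18, adjusted p = 0.871). It thus varied far less between mice than Saa1 and Saa2. Orm3, the third alpha-1-acid glycoprotein gene, had 0.206, 2.82 and 4.32 CPM in the WT and 0.301, 0.392 and 2.19 CPM in the KO livers. As for Orm2, mice D, E and F were the high ones.

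Among 12 negative acute phase genes, whose products fall in inflammation, 8 were above and 4 below 0 in KO liver, with a median of 0.064. The edgeR test called 0 of 12 (1 at an unadjusted p under 0.05), and DESeq2 called 1, Ahsg. Ahsg, which encodes the mineral-binding fetuin-A, had 2329, 2755 and 2467 CPM in WT livers B, D and E and 3434, 3617 and 3859 CPM in KO livers A, C and F. Every KO liver was above every WT liver, and the log2 fold change was 0.53 with an SE of 0.15 (adjusted p = 0.446 with edgeR and 0.0292 with DESeq2, the lowest of 14 alternatives, which reached 0.985).

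Hamp was set beside 22 genes of its control and of iron handling. Of the 21 that were tested, 15 were above and 6 below 0, with a median of 0.13, and 0 were called by either tool (2 at an unadjusted p under 0.05, both lower). Tfrc, the transferrin receptor, whose mRNA is stabilised when iron is scarce, had 28.6, 30.7 and 22.0 CPM in WT livers B, D and E and 19.6, 19.8 and 12.7 CPM in KO livers A, C and F. The groups did not overlap, and the log2 fold change was -0.64 (SE 0.20, adjusted p = 0.487). Hjv, the BMP co-receptor hemojuvelin, was the other gene at an unadjusted p under 0.05, with 59.7, 56.9 and 58.1 CPM in the WT and 41.0, 48.1 and 48.6 CPM in the KO livers (log2 fold change -0.34, SE 0.12, adjusted p = 0.553). Bmp6, the ligand that reports liver iron, had 8.50, 4.55 and 12.4 CPM in the WT and 8.55, 11.6 and 8.29 CPM in the KO livers, and like Hamp it was lowest in mouse D. Hamp2, the near-identical copy of Hamp, had 381 CPM in WT liver E and 269 CPM in KO liver F, the mice without Y-linked transcripts, against 3.53 to 14.1 CPM in the other 4. Hamp itself was not split into separate levels in that way, although mice E and F were the highest of their genotypes. With Y-linked transcripts as a covariate the SE of its log2 fold change was 0.17 and its edgeR adjusted p was 0.117.

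Receptors and partners of the proteins gave 0 calls among the 8 of 10 that were tested, with 3 at an unadjusted p under 0.05 and 0 called by DESeq2. Scarb1, the high density lipoprotein receptor that also binds serum amyloid A, had a log2 fold change of 0.47 (SE 0.14, adjusted p = 0.467). Cd163, the macrophage receptor for haptoglobin and haemoglobin, had 31.2, 34.3 and 35.7 CPM in WT livers B, D and E and 23.0, 19.5 and 30.9 CPM in KO livers A, C and F (log2 fold change -0.46, SE 0.17, adjusted p = 0.589). Every KO liver was below every WT liver for Cd163, whereas Hp, which encodes its ligand, showed no such order.

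In brain, the genes were close to absent. No member passed the filter on low counts in KO against WT brain, where edgeR called 0.064% of 17188 genes and DESeq2 1.52% of 17567 (11.0% at an unadjusted p under 0.05 with edgeR). DESeq2 and edgeR without a filter each tested 7 of the 10 and called 0, and the fit over all 12 libraries tested 10 and called 0. Over all genes, edgeR called 1000 without a filter and 15 in the fit over all 12 libraries. Orm2, Lcn2 and Apcs had 0 counts in all 6 brain libraries, which allows up to 3 counts in each. The highest single value was 10 counts of Hp in WT brain D. Hp had 2, 10 and 4 counts in WT brains B, D and E and 5, 6 and 3 counts in KO brains A, C and F, and Hamp had 1, 5 and 5 and then 2, 2 and 0 counts. Saa1, the gene with the most counts in brain relative to its liver level apart from Saa3, had 9 counts in all. These values leave no room for a comparison between genotypes. Mouse D, high in liver, had the most brain counts of Hp (10) and Orm1 (4) and 485 counts of Alb, against at most 224 in the other brains, but 1 count of Saa1 and 0 of Saa2 and Lcn2.

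The brain counts were also set against the liver counts of the same gene, with albumin beside them. Over the 6 libraries of each tissue, brain held 229 counts of Alb per 1000000 counts of Alb in liver. The same figure was 212 for Orm1, 277 for Hp, 337 for Hamp and 563 for Crp, which rest on 7, 30, 15 and 9 brain counts. It was 3086 for Saa2, 7335 for Saa1 and 10870 for Saa3, on 2, 9 and 1 brain counts, and 0 for Orm2, Lcn2 and Apcs. The figures thus ran unevenly over the 10 genes, with few brain counts behind each. The source of these few reads was not tested.

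**Figure D5:**
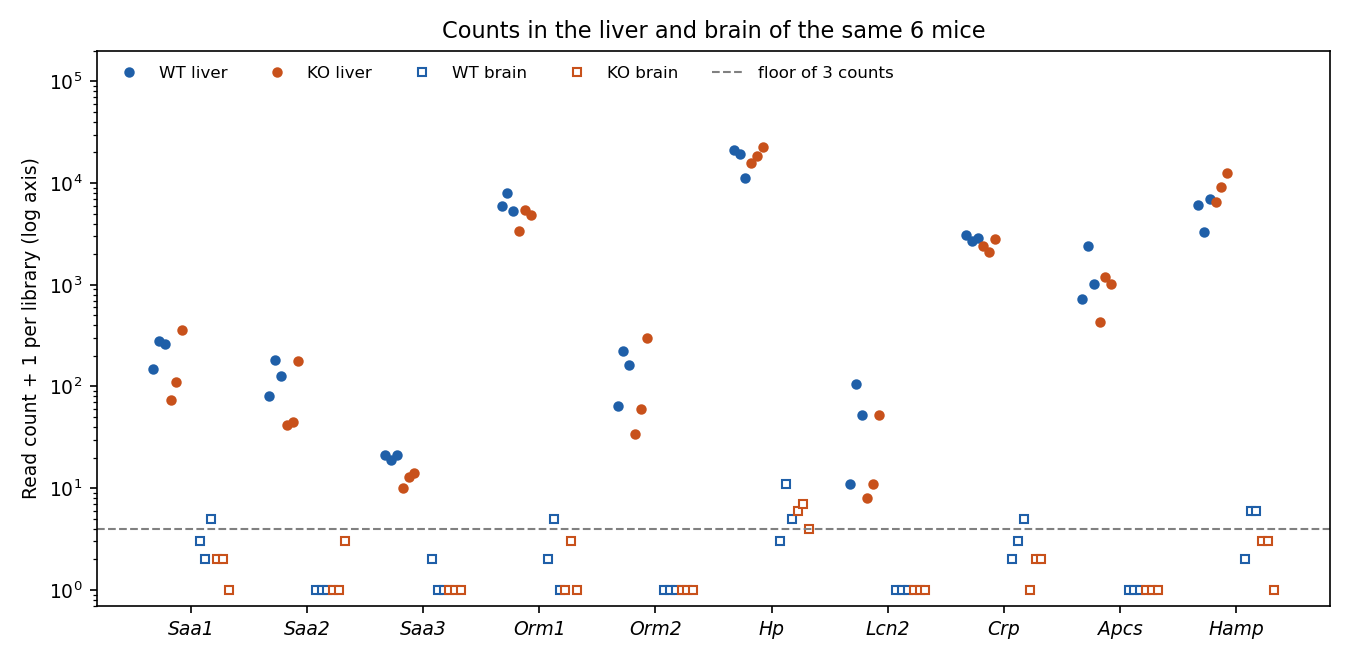
Read counts plus 1 (log axis) of the 10 genes in the 6 livers (filled circles) and the 6 brains (open squares) of the same mice, with WT in blue, KO in orange and a dashed line at the floor of 3 counts. Brain counts reach at most 10 (Hp), whereas liver counts run from 7 (Lcn2) to 22394 (Hp).

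Between WT liver and WT brain 78.4% of 18944 genes tested were called and 34.8% were called higher in liver. The 10 genes entered that fit only through their liver counts, so their calls there carry no weight and the sizes are given as a description. For genes at 3 counts or fewer in every WT brain library the fold is a lower bound against that floor per library. Apcs was at least 507-fold higher in WT liver, Orm2 at least 54.0-fold, Saa2 at least 46.2-fold, Lcn2 at least 20.6-fold and Saa3 at least 6.71-fold. Without mouse D the bound was 278-fold for Apcs and 10.1-fold for Lcn2, and without mouse B it was 32.1-fold for Lcn2. For the other 5 the fitted log2 difference of liver over brain was 12.55 (SE 0.53) for Orm1, 12.38 (SE 0.46) for Hp, 11.21 (SE 0.46) for Hamp, 10.92 (SE 0.29) for Crp and 7.30 (SE 0.73) for Saa1. The value for Orm1, which rests on 5 counts in WT brain, was 13.66 without mouse D and 12.09 without mouse E, and that for Saa1 was 6.65 without mouse D. The test of whether the genotype effect differed between liver and brain called 0 of 10 members and 0% of 18944 genes (10.6% at an unadjusted p under 0.05, and 2.01% of 18235 called by DESeq2, with 0 members). With mouse as a block it called 68 genes and without mouse D 86, again with 0 members, and with so few brain counts it adds nothing to the liver values for these genes.

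Other acute phase genes were read in brain. Of the 27 positive ones 14 were tested, with 3 above and 11 below 0, a median of -0.28 against -0.0016 over all genes, and 0 called by edgeR (1 at an unadjusted p under 0.05). DESeq2 called 1 of them, A2m, a plasma protease inhibitor that had 17.3, 30.7 and 15.6 CPM in WT brains B, D and E and 5.04, 13.0 and 7.19 CPM in KO brains A, C and F (log2 fold change -1.34 with an SE of 0.37, adjusted p = 0.355 with edgeR and 0.0227 with DESeq2, and from 3.21e-07 to 0.943 over 14 alternatives). Markers of the choroid plexus lay on the same side, with 7 of 7 below 0 in KO brain, a median of -0.88, 0 called by edgeR and 3 by DESeq2, 5 at an unadjusted p under 0.05 and summed levels of 566 to 810 CPM in WT and 344 to 421 CPM in KO brain. Hepatocyte markers (8 of 8 tested below 0, median -0.64) and reactive astrocyte markers (7 of 8 below 0, median -0.16, 284 to 458 CPM and 250 to 306 CPM) lay there too, each with 0 called by edgeR, 1 by DESeq2 and 2 at an unadjusted p under 0.05. The hepatocyte markers summed to 215 to 386 CPM in WT and 117 to 178 CPM in KO brain, but nearly all of this was Ttr, which is also a choroid plexus marker. Without Ttr the other 9 summed to 18.6 to 41.7 CPM in WT and 16.9 to 21.6 CPM in KO brain, and the groups overlapped. The part of these cells in the values of A2m and the other acute phase genes was not tested. C3, the central complement component, averaged 5.37 ± 2.76 CPM in WT and 3.31 ± 0.253 CPM in KO brain (SD, n = 3, edgeR adjusted p = 0.493).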

How the data were processed

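Total RNA of the liver and brain of 6 mice was sequenced as stranded libraries (SMARTer kit, single-end reads of 100 bases). Per the labels and the study's methods, the authors trimmed reads with Trimmomatic, aligned them to mm10 with STAR 2.7.3a and ran featureCounts on exons in its reverse-stranded mode, and the deposited table holds these raw counts per gene without normalisation. FastQC 0.11.5 is also named.

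Groups follow the labels. Counts were fitted in R 4.3.3 with edgeR 4.0.16 (TMM scaling, filterByExpr, robust quasi-likelihood F test, Benjamini-Hochberg adjustment over all genes tested, call at an adjusted p under 0.1), within each tissue for genotype and over all 12 libraries for tissue and for the difference of genotype effects. DESeq2 1.42.0 was an alternative. SEs come from the F statistic. Single values were compared with an exact two-sided permutation test (smallest p 0.1). Fitting was tested on simulated data. A count of 3 per library was the floor, which covers counting error only, whereas the SDs and SEs include the variation between mice. Symbols were matched for 55141 of 55487 genes. Replicates are separate mice.

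The labels give liver and brain of a mouse the same letter. Deviations of a mouse's libraries from their group means had Pearson r from -0.0566 to 0.126 over 12574 genes, and a fit with mouse as a block was an alternative. WT and KO share no letter. The paper speaks of 3 pairs of mice, yet no label ties a given KO mouse to a WT mouse, and genotypes were therefore not paired.

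The 10 genes, the gene lists and the naming rule (all 10 genes, at most 4 genes per list and tissue with the smallest p, pathway genes, and the 10 genes most like the members) were chosen with earlier results of these data known. Other alternatives were other scalings, no filter, Y-linked transcripts as a covariate and leaving out each mouse.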

Additional observations from a re-analysis of the deposited data

How the results depend on the processing

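With no filter on low counts, 2 of the 10 genes (Hamp, adjusted p = 3.06e-04, and Orm1, adjusted p = 0.0558, edgeR) and 443 genes in all were called in KO against WT liver, against 0 and 0 with the filter, and the cause was not tested. The next lowest adjusted p-values of Hamp were 0.117 with Y-linked transcripts as a covariate (edgeR) and 0.132 with DESeq2. With edgeR it was 0.534 in the main fit and reached 0.985 without mouse B. In mice with Y-linked transcripts only, Hp was at -0.24 (log2), and the cause was not tested. Lcn2 failed the filter in those mice and could not be fitted. Leaving out each mouse in turn moved Lcn2 from -2.75 (without F) to -0.47 (without D), Saa2 from -1.62 (F) to -0.25 (D), Saa1 from -1.36 (F) to -0.12 (A), Orm2 from -1.74 to 0.17, Hp from -0.16 to 0.28 and Apcs from -1.14 to 0.029. Leaving out mouse D brought the median of the 10 genes to -0.22, and leaving out mouse F to -0.85. Of 253 values from alternatives in liver, over members and other named genes, 239 kept their direction and side of the threshold, 7 passed the threshold under the alternative alone and 7 reversed. In brain 121 of 126 did so and 5 passed under the alternative alone. With mouse as a block, which the shared letters of liver and brain allow, 0 of 10 genes were called for the difference of genotype effects, as without it, but 68 genes in all against 0 (86 without mouse D). The 10 of 10 calls between WT tissues, with or without the block, carry no weight, since the genes entered that fit through liver alone. Over all genes, KO against WT liver gave 87 calls without mouse D and 82 with Y-linked transcripts as a covariate, and brain 1000 with no filter against 11. The calls of the other named genes that appeared under an alternative were Tat, Ahsg and Tfrc in liver and A2m, Ttr and Trf in brain. Depth limits Saa3 (9 to 20 counts per liver), Lcn2 (7 to 105) and all 10 genes in brain.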

Other observations

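The genes whose liver levels were most like the mean deviation of the 10 acute phase protein genes were Ctdnep1 (Pearson r = 0.98), Rnf130 (0.98), Ercc4 (0.98), Camk2n1 (0.97), 6430548M08Rik (0.97), Cotl1 (0.96), Vsig4 (0.96), Tnfrsf1a (0.96), Wfdc21 (0.96) and Ptgs1 (0.96), over 6 libraries and 7454 genes with a mean of at least 10 CPM. With 6 points, 45 of the 7454 genes reached an r of 0.9, and the points share their libraries, so these are descriptions. Rnf130, for example, moved little, with 65.4, 70.1 and 69.1 CPM in WT livers B, D and E and 63.1, 65.6 and 69.4 CPM in KO livers A, C and F. Wfdc21, which encodes a small secreted protein, had 131, 201 and 150 CPM in the WT and 89.8, 122 and 153 CPM in the KO livers. Vsig4, a complement receptor of Kupffer cells, had 16.3, 30.9 and 26.7 CPM in the WT and 11.1, 14.2 and 22.8 CPM in the KO livers, and Tnfrsf1a, a receptor for tumour necrosis factor, stayed between 47.8 and 53.5 CPM.

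Of 2 other induced genes, chosen after their values were seen, Fgl1 split the mice as Lcn2 did and Mt2 was high in mice E and F only. Fgl1, a fibrinogen-like protein made by hepatocytes, had 91.1, 343 and 258 CPM in WT livers B, D and E and 90.1, 67.2 and 383 CPM in KO livers A, C and F, so mice D, E and F were high. Its log2 fold change was -0.36 (SE 0.90, edgeR adjusted p = 0.973). Mt2, a metal-binding metallothionein, had 14.1 CPM in KO liver F and 2.04 CPM in WT liver E, against at most 0.360 CPM in the other 4 livers, and did not pass the filter on low counts.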
